A study of Mus musculus with 6 samples.

Results

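Acetylation of histone H3 at lysine 27 (H3K27ac), a mark of active enhancers and promoters, was examined around the genes Klf2, Klf4 and Klf5 in mouse ESCs before and after the addition of auxin to deplete OCT4. Members are the H3K27ac peaks that overlap each gene body or the 20 kb on either side of it in GENCODE vM21 (GRCm38), with the window of Klf4 extended to 55440000-55552466 on chromosome 4 so that it holds the distal enhancer downstream of the gene. This choice gave 19 of the 31131 peaks of the study, 6 around Klf2, 9 around Klf4 and 4 around Klf5. The rule uses positions and no measured value, although the 3 genes and the extension of the Klf4 window were chosen with earlier results of these data known.

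The cells were O4AID ESCs of strain 129SV, and their genotype combines Oct4-/- with TetOFF Oct4, CAG Oct4AID and CAG Tir1. Both copies of the gene for OCT4 are disrupted, a wild-type transgene is held silent by doxycycline, and a constitutive promoter drives OCT4 fused to an auxin-inducible degron together with TIR1, the plant protein that targets the fusion for degradation once auxin is present. All 6 libraries came from this line, grown in N2B27 with 2 kinase inhibitors and LIF in the presence of doxycycline. Uninduced cells gave 3 libraries, each from its own immunoprecipitation (IP), and cells exposed for 1.5 h to 500 μM indole-3-acetic acid (IAA), an auxin, gave 3 more. Cells without the degron that received IAA were not analysed here, so OCT4 loss and exposure to IAA cannot be told apart in these libraries. In ESCs with the degron on eGFP, the paper reports no change in H3K27ac after IAA, by ChIP-qPCR at the distal enhancers of Klf4 and Prdm14. The p-values measure the spread between IPs of this single line.

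KLF2, KLF4 and KLF5 are zinc finger transcription factors that bind GC-rich CACCC-type DNA sequences. In naive ESCs they act alongside OCT4, SOX2, NANOG and ESRRB, with partly overlapping roles in self-renewal. Klf4 lies downstream of LIF and STAT3 and is one of the classical reprogramming factors, Klf2 is sensitive to inhibition of the MEK and ERK pathway, and Klf5 also has functions in the early embryo and in epithelia. OCT4, a POU domain factor, recognises the octamer sequence and commonly binds next to SOX2 at enhancers.

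Signal is given as RPKM, reads per kilobase of the peak scaled to the depth of its library, so that levels of different peaks can be compared per length. Library sizes recovered from the values were between 31634480 and 39547452 reads, and a member peak held 14 to 578 reads in a library. Across all peaks, the share of reads lying in peaks was 6.63% to 7.12% in uninduced libraries and 4.05% to 5.15% in IAA libraries. The median log2 change over the 26457 peaks above the background limit of 0.5 RPKM was -0.55, so the changes of the 3 genes and of their peaks are also given relative to the median peak of the library, here called the centred scale. Which part of the shared fall is acetylation and which is the efficiency of the IPs was not tested. All 6 ESC genes listed as markers (Nanog, Esrrb, Tfcp2l1, Prdm14, Zfp42 and Sox2) carried peaks, 42 in all and at 2.10 to 6.59 RPKM in uninduced cells, whereas 6 of 10 genes listed as markers of trophoblast, endoderm and germ layers had no peak and the other 4 (Gata3, Gata6, Pax6 and Sox1) stood at 1.62 to 2.39 RPKM.

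H3K27ac peaks often come in pairs, since the DNA between them is often occupied by transcription factors rather than by nucleosomes. The authors mark peaks with an OCT4 binding site at most 1 kb away in earlier ESC data, here called OCT4-marked. Of the 19 peaks 9 carry this mark (3 of 6 at Klf2, 5 of 9 at Klf4 and 1 of 4 at Klf5). Of the 26457 peaks above the background limit, 1218 within 1 kb of a transcription start and 3444 elsewhere carry it. Gaps of at least 100 and under 1000 bases between 2 OCT4-marked peaks were found once at Klf2, at 2 places in the Klf4 distal enhancer, and at 2 places beyond the end of the Klf5 window. A stretch of each of these 5 gaps is shown because peaks with some of the steepest losses of H3K27ac described below lie on either side of them. They are the forward strand of GRCm38, 300 bases each or the whole gap where it is shorter, and capitals mark matches to the octamer (ATGCAAAT) or to a KLF site (GGGNGTGG), which read as their reverse complement where the match is on the other strand.

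Klf2 downstream gap, chr8:72334456-72334755: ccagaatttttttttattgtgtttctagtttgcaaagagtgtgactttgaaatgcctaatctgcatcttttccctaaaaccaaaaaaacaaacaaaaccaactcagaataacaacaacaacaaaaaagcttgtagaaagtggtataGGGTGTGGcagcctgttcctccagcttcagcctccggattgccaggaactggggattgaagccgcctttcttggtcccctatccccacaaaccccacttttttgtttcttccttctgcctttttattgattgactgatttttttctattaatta

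Klf4 distal enhancer, far gap, chr4:55464261-55464560: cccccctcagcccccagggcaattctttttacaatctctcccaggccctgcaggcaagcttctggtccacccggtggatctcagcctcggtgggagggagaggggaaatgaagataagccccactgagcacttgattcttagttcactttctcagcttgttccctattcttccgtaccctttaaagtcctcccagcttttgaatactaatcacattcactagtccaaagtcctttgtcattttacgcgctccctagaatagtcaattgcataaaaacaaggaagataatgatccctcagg

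Klf4 distal enhancer, near gap, chr4:55477355-55477654: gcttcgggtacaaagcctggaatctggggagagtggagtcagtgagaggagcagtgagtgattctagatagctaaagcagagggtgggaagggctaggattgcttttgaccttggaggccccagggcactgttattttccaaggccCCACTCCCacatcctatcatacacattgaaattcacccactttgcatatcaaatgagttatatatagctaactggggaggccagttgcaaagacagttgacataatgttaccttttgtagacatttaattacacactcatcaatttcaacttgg

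Klf5 first downstream gap, chr14:99340171-99340470: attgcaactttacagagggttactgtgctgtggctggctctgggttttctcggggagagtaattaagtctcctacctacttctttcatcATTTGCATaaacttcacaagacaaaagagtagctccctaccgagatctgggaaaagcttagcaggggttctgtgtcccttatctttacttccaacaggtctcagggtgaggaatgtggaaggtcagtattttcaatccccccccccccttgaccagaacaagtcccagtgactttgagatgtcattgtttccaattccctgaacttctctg

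Klf5 second downstream gap, chr14:99355429-99355681: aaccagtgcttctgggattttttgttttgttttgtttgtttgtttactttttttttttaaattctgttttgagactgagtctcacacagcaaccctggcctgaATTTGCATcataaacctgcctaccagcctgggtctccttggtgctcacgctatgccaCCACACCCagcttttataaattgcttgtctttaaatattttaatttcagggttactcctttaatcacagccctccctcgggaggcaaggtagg

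Both Klf5 gaps hold an octamer, at 99340260 and 99355532. Of gaps of the study with an OCT4-marked peak on each side, trimmed to the same length, 9.78% and 9.03% hold one, and of gaps between any 2 peaks 3.64% and 3.08%. The other 3 gaps hold none. A KLF site was present in the Klf2 gap, in 1 of the 2 Klf4 gaps and in the second Klf5 gap, with 40.9%, 32.4% and 19.6% of OCT4-flanked gaps of the same length holding one. The 7 gaps of this size in or beside the windows held none of the 3 other sequences searched on both strands (a joined SOX and POU core, TTGTNATGC, which can overlap an octamer, the ESRRB half-site TCAAGGTCA and the STAT site TTCCNGGAA) except for an ESRRB half-site at 99325752, between the last 2 peaks of the Klf5 window. Inside the 19 peaks themselves there was 1 octamer, in an intron of Klf5, and 3.01% of all peaks hold one. The 19 peaks held 7 KLF sites in 6 peaks, a density of 0.404 per kb against 0.477 per kb in all peaks. A match describes the letters of the sequence and was not tested as a binding site.

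H3K27ac was lower after IAA at all 3 genes, and the Klf2 and Klf4 windows kept less of their starting level than the Klf5 window. At Klf2, the length-weighted mean of the 6 peaks was 5.03, 4.98 and 4.81 RPKM in uninduced replicates 1, 2 and 3 and 2.57, 2.25 and 1.72 RPKM in IAA replicates 1, 2 and 3. At Klf4, the 9 peaks averaged 5.48, 5.11 and 5.26 RPKM before and 2.60, 2.54 and 2.10 RPKM after IAA. At Klf5, the 4 peaks averaged 2.76, 2.96 and 2.97 RPKM before and 2.19, 1.82 and 1.72 RPKM after. In none of the 3 windows did the libraries of the 2 conditions overlap.

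Expressed as means, H3K27ac fell from 4.94 ± 0.114 to 2.18 ± 0.426 RPKM at Klf2 (SD, n = 3 each), from 5.28 ± 0.184 to 2.41 ± 0.270 RPKM at Klf4 and from 2.90 ± 0.117 to 1.91 ± 0.245 RPKM at Klf5. What remained was 44.1%, 45.6% and 65.9% of the uninduced level. The log2 changes were -1.20 ± 0.170 (SE), -1.14 ± 0.101 and -0.61 ± 0.110, each with p = 0.1 in an exact two-sided permutation test, the smallest p possible for 3 against 3 libraries. In uninduced cells Klf4 stood above Klf2 and Klf2 above Klf5 with no overlap between libraries, whereas after IAA the ranges of all 3 genes overlapped.

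Relative to the median peak of the same library, the change at Klf5 stood apart from those at Klf2 and Klf4. Klf2 stood 1.01 log2 units above the median peak in uninduced cells and 0.39 above it after IAA, a change of -0.62 ± 0.066 (SE), and Klf4 went from 1.11 to 0.55 above it, a change of -0.56 ± 0.043. Neither gene showed any overlap between conditions on this scale (exact permutation test, p = 0.1 each). Klf5 was 0.24 above the median peak before and 0.21 above it after, a change of -0.03 ± 0.073 with overlapping libraries (exact permutation test, p = 0.7). The acetylation in the 20 kb around Klf5 thus moved by about as much as the typical peak of the genome, and its difference from that peak was not detectable with 3 IPs.

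**Figure D1:**
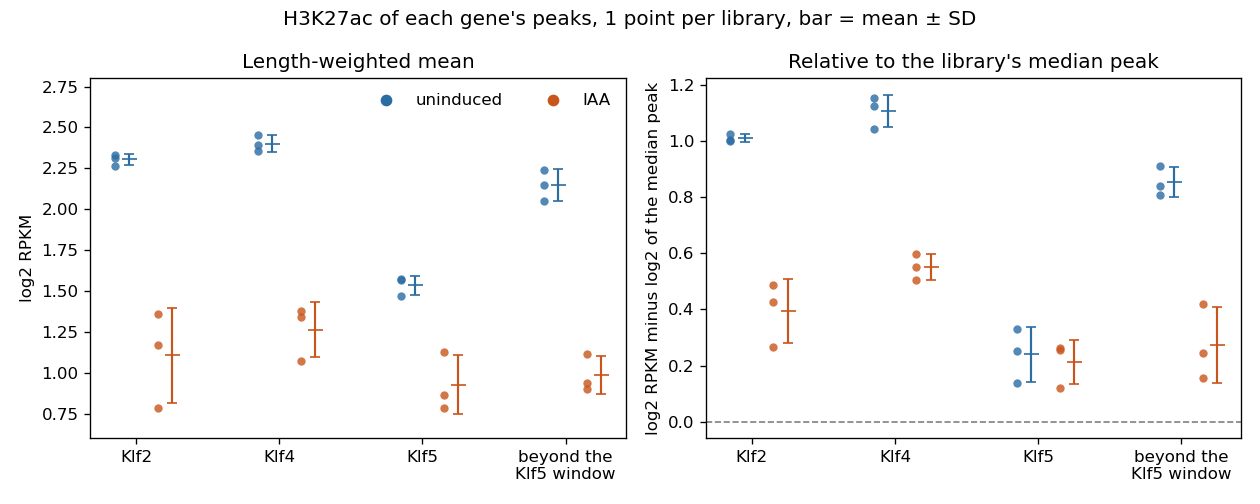
H3K27ac over the peaks of each gene, as log2 RPKM (left axis, length-weighted mean) and as log2 RPKM minus that of the median peak of the same library (right axis), with 1 point per library and bars for mean ± SD of 3 uninduced (blue) and 3 IAA (orange) IPs. Klf2, Klf4 and the peaks beyond the Klf5 window fall on both scales, whereas the 4 peaks of the Klf5 window overlap between conditions once set against the median peak.

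Differences between genes were tested within libraries, which removes a scale factor that multiplies all peaks of a library alike. An effect that depends on the level of a peak is not removed, and its share in these differences was not tested. The change at Klf4 minus that at Klf2 was 0.06 ± 0.083 (SE) on the log2 scale and the libraries overlapped (exact permutation test, p = 0.5 before and after adjustment over 5 differences). The change at Klf5 was smaller than that at Klf2 by 0.59 ± 0.103 and smaller than that at Klf4 by 0.53, both without overlap between conditions (exact permutation test, p = 0.1, adjusted p = 0.167). No difference passed the adjusted threshold of 0.05, which this design cannot reach.

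Peak by peak, all 19 members were lower after IAA (limma on log2(RPKM + 0.1), Benjamini-Hochberg adjusted p between 1.9e-05 and 0.0286). That call was made for 68.2% of all peaks. In all 19 the highest IAA value was below the lowest uninduced value, which held for 71.2% of all peaks. Their log2 changes ran from -1.47 to -0.51 with a median of -1.02, against -0.55 over all peaks. With libraries centred on their median peak, 7 members were called lower, against 1.97% of all peaks, and these were 3 of 6 at Klf2, 4 of 9 at Klf4 and 0 of 4 at Klf5. Quantile normalization in place of centring also called 0 of 4 at Klf5.

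**Figure D2:**
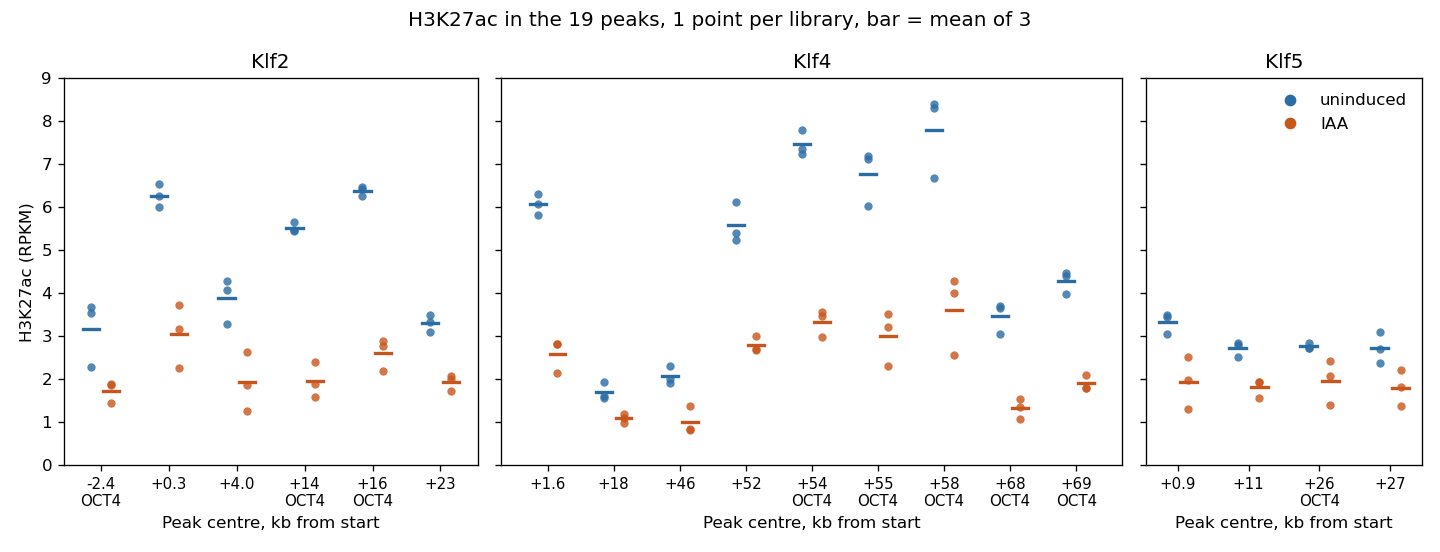
H3K27ac in RPKM (vertical axis) in each of the 19 peaks of Klf2, Klf4 and Klf5, ordered by the distance of the peak centre from the start of the gene in kb along the direction of transcription, with 1 point per library and a bar for the mean of 3. OCT4 under a distance means an OCT4-marked peak. Blue (uninduced) and orange (IAA) points overlap in no peak, and the 4 Klf5 peaks start lowest as a group, at 2.72 to 3.33 RPKM.

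Around Klf2, a short gene on the forward strand of chromosome 8 (72319033-72321656), the pair of OCT4-marked peaks downstream of the gene lost most. The peak at 72332867-72334142, intergenic and 13.8 kb from the start of Klf2, had 5.45, 5.65 and 5.47 RPKM in uninduced libraries and 2.39, 1.89 and 1.58 RPKM in IAA libraries. Its log2 change of -1.47 ± 0.169 (SE, limma, adjusted p = 1.9e-05) was the steepest of all members, and 35.4% of the signal remained. Across the gap printed above, the peak at 72334766-72335650 went from 6.46, 6.26 and 6.43 RPKM to 2.79, 2.88 and 2.19 RPKM, a change of -1.26 ± 0.157. Both were also lower on the centred scale (limma, adjusted p = 0.0024 and 0.0036). The uninduced values of either peak lie close together, and each IAA value is less than those by more than the whole spread of the 3 IPs. Among coding genes, the body of Eps15l1, an adaptor in endocytosis, is nearer to these 2 peaks (6857 and 5349 bases) than that of Klf2, and the data hold no link of a peak to a gene.

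The promoter peak of Klf2, at 72319082-72319632, begins 50 bases after the annotated start, covers part of an exon of Klf2 and is not OCT4-marked. It had 6.25, 6.55 and 6.01 RPKM before and 3.73, 3.17 and 2.26 RPKM after IAA. The fall of 1.04 on the log2 scale passed the test on both scales (limma, adjusted p = 0.000263 and centred 0.0369). The other OCT4-marked peak lies 2143 bases upstream of the start, at 72316434-72316890, with 3.55, 2.29 and 3.68 RPKM before and 1.86, 1.88 and 1.46 RPKM after. It fell by 0.81 ± 0.198 (centred change -0.26, limma, adjusted p = 0.578), and uninduced replicate 2 was closer to the IAA libraries than to the other uninduced ones.

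The 2 remaining Klf2 peaks are unmarked. At 72322627-72323514, just past the end of the gene, H3K27ac fell from 3.88 ± 0.521 to 1.93 ± 0.689 RPKM (SD, n = 3), a log2 change of -1.02. The peak at 72341278-72341894 overlaps a UTR exon of Eps15l1 and fell from 3.31 ± 0.195 to 1.93 ± 0.177 RPKM, a change of -0.75 and the smallest in this window. Neither passed the test on the centred scale (limma, adjusted p = 0.194 and 0.527).

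Klf4 lies on the reverse strand of chromosome 4 (55527143-55532466), and 7 of its 9 peaks form a cluster 45.9 to 68.3 kb downstream of its start. Among coding genes the nearest to all 7 is Klf4. The cluster went from 5.79 ± 0.346 to 2.64 ± 0.264 RPKM (SD, n = 3), a log2 change of -1.14, which equals to 2 decimals that of the whole window. Changes within the cluster were narrow, between -1.33 and -0.97, although the uninduced level ranged from 2.08 to 7.80 RPKM.

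The highest peak of all members, at 55474233-55474853, is OCT4-marked and had 8.32, 6.68 and 8.41 RPKM before and 4.02, 4.29 and 2.56 RPKM after IAA, a fall of 1.11 ± 0.182 on the log2 scale. Libraries spread widely within each condition, and on the centred scale it missed the threshold (limma, adjusted p = 0.0531). Its neighbours on either side of the near Klf4 gap printed above also carry the OCT4 mark. The peak at 55476584-55477349 went from 7.21, 6.03 and 7.12 RPKM to 3.22, 3.51 and 2.301 RPKM, a change of -1.16. The longer one at 55477790-55479438 went from 7.81, 7.23 and 7.37 RPKM to 3.56, 3.46 and 2.99 RPKM, a change of -1.14 ± 0.148. Both passed on the centred scale (limma, adjusted p = 0.0208 and 0.0049).

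At the far end of the cluster a second OCT4-marked pair, on either side of the far Klf4 gap, lies in introns of Gm12510, an annotated gene whose start is within 1 kb of the peak at 55464627-55465219. That peak had 3.72, 3.04 and 3.66 RPKM before and 1.53, 1.08 and 1.36 RPKM after IAA, a change of -1.33 ± 0.186 and the steepest at Klf4, and it passed on the centred scale (limma, adjusted p = 0.0276). Its partner at 55463382-55464194 went from 4.29 ± 0.272 to 1.90 ± 0.167 RPKM (SD, n = 3), a change of -1.13 that missed on the centred scale (limma, adjusted p = 0.0566). The unmarked peaks of the cluster, at 55480174-55481332 and 55486066-55486594, changed by -0.971 and -0.996 and missed as well (limma, centred adjusted p = 0.0577 and 0.323), the last holding only 2.08 ± 0.199 RPKM before IAA.

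The promoter peak of Klf4, at 55529643-55532045, covers exons and part of a UTR from 421 bases after the start onward, and is the longest member at 2402 bases. It carries no OCT4 mark. Values of 6.08, 6.32 and 5.83 RPKM in uninduced cells gave way to 2.83, 2.82 and 2.14 RPKM after IAA. The change of -1.21 ± 0.159 (limma, adjusted p = 4.2e-05, centred 0.0051) is within the range of the OCT4-marked peaks of the distal cluster. Between promoter and cluster, the unmarked peak at 55514239-55515639 was the lowest of all members at 1.70 ± 0.203 RPKM and went to 1.10 ± 0.100 RPKM, a change of -0.59 close to that of the median peak (limma, adjusted p = 0.0206, centred 0.964), and this call was lost without uninduced replicate 1 or without uninduced replicate 3.

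Around Klf5, on the forward strand of chromosome 14 (99298691-99315036), changes were small by comparison. The peak nearest the start, at 99299291-99299987 in the first part of the gene, lies in an intron 601 bases after the annotated start and had 3.05, 3.497 and 3.45 RPKM before and 1.98, 1.31 and 2.53 RPKM after IAA. It fell by 0.79 ± 0.201 on the log2 scale (limma, adjusted p = 0.0043, centred 0.713), with IAA libraries further apart than the uninduced ones. A second intronic peak, at 99309815-99310389, went from 2.72 ± 0.180 to 1.81 ± 0.218 RPKM (SD, n = 3), a change of -0.57, and of -0.01 on the centred scale.

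Downstream of the gene, the 1 OCT4-marked peak of the window, at 99324136-99325311, showed the smallest change of all members. Its values were 2.73, 2.85 and 2.73 RPKM before and 2.42, 2.08 and 1.40 RPKM after IAA, a change of -0.51 ± 0.194 (limma, adjusted p = 0.0286) with 70.9% remaining, and of 0.05 on the centred scale (limma, adjusted p = 0.935). The uninduced libraries are nearly equal and the IAA libraries spread from 2.42 down to 1.40 RPKM. This call was lost when any 1 uninduced library or IAA replicate 3 was left out. The unmarked peak beside it, at 99325911-99326202, went from 2.73 ± 0.360 to 1.80 ± 0.414 RPKM, a change of -0.59, and of -0.03 on the centred scale. The call on the deposited scale was lost without uninduced replicate 3.

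The window ends before the stronger acetylation on this side of Klf5. From 24485 to 40646 bases past the end of the gene lie 5 further peaks, chosen after the values were seen and all nearest to Klf5 among coding genes, of which 4 are OCT4-marked. Together they averaged 4.73, 4.44 and 4.14 RPKM in uninduced libraries and 2.17, 1.87 and 1.92 RPKM in IAA libraries, a log2 change of -1.16 and, against the median peak, of -0.58. These values are much like those of Klf2 and Klf4. The 2 pairs that flank the printed Klf5 gaps changed by -1.10 and -1.20 (99339520-99340170 and 99340499-99341391) and by -1.39 and -1.18 (99354472-99355428 and 99355681-99356203).

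The third of these 5 in order, at 99347912-99349029, is the unmarked one and had the smallest change, -0.85. All 5 were lower (limma, adjusted p between 2.7e-05 and 0.000529), a call made for 68.2% of all peaks. The peak at 99354472 was also lower on the centred scale (limma, adjusted p = 0.0053). The other 4 were not (limma, centred adjusted p between 0.0557 and 0.22). As these peaks were chosen after their values were seen, the p-values only describe them. With flanks of 50 kb the Klf5 locus changed by -0.97 and its difference from Klf2 shrank from 0.59 to 0.23 (exact permutation test, p = 0.1). Klf4 minus Klf5 went from -0.53 to -0.17 (exact permutation test, p = 0.2). The size of the contrast between Klf5 and the other 2 genes thus depends on where the window ends.

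**Figure D3:**
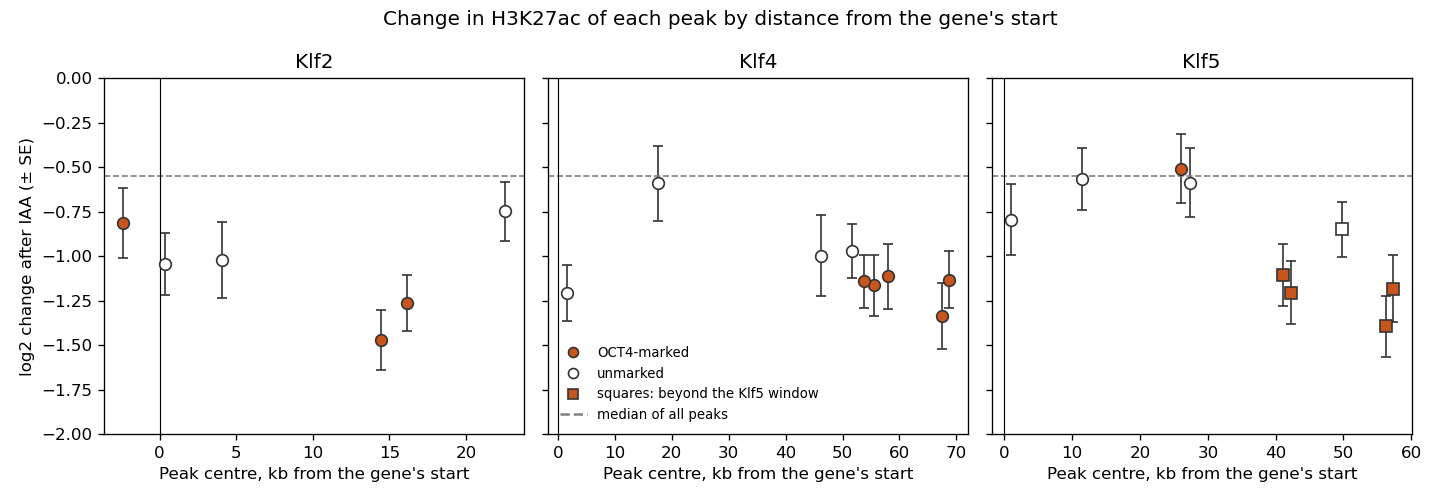
Log2 change in H3K27ac after IAA with its SE (vertical axis) for each peak, against the distance of its centre from the gene's start in kb (horizontal axis, a separate scale for each gene), filled for OCT4-marked and open for unmarked peaks, with squares for the 5 peaks beyond the Klf5 window. The dashed line is the median of all peaks, -0.55. The filled points beyond 40 kb at Klf4 and Klf5 and beyond 10 kb at Klf2 lie between -1.47 and -1.10, whereas the filled point of the Klf5 window at -0.51 lies just above the line.

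The other peaks next to the windows changed by -0.88 to -0.26 as deposited and by -0.33 to 0.29 on the centred scale. The nearest on the upstream side of Klf2, OCT4-marked at 72292469, changed by -0.88 and the nearest downstream, in an intron of Eps15l1, by -0.67. On either side of the Klf4 window the nearest peaks changed by -0.64 and -0.46, the latter not passing the test (limma, adjusted p = 0.0697). Upstream of Klf5 the nearest peak lies 145 kb away in an intron of Pibf1, with a change of -0.26 and overlapping conditions (limma, adjusted p = 0.236).

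Taken as 1 set, the 19 peaks changed more with the OCT4 mark than without it. The 9 marked peaks had a median change of -1.14 and the 10 unmarked peaks one of -0.88, and 5 of 9 against 2 of 10 were lower on the centred scale. By gene, marked and unmarked medians were -1.26 and -1.02 at Klf2 and -1.14 and -0.98 at Klf4. At Klf5 they were -0.51 and -0.59, the other way round. Klf5 supplied 3 of the unmarked peaks and 1 of the marked ones, so mark and gene are partly confounded. Of distal members alone, 4 of 8 marked and 0 of 7 unmarked peaks were lower on that scale. Over all peaks of the study that share was 7.87% for OCT4-marked distal peaks and 1.18% for unmarked distal ones, with median changes of -0.74 and -0.54. For promoter peaks it was 6.65% with the mark and 0.428% without. Within libraries, the mean of the marked members exceeded that of the unmarked ones by 0.58, 0.40 and 0.54 log2 units in uninduced replicates 1, 2 and 3 and by 0.20, 0.34 and 0.23 in IAA replicates 1, 2 and 3. The difference narrowed by 0.25 ± 0.068 (SE) without overlap (exact permutation test, p = 0.1, adjusted p = 0.167). With the Klf4 peaks left out, the marked minus unmarked change was -0.22 (exact permutation test, p = 0.2). With flanks of 10 kb and no extension of the Klf4 window, 2 choices that changed together, the difference turned and the marked peaks changed less than the unmarked ones by 0.27. That setting leaves out the downstream pair of Klf2 and all 5 marked peaks of Klf4.

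Promoter and distal members did not separate. The 4 promoter peaks, defined by a transcription start within 1 kb, had a median change of -1.12 and the 15 distal peaks one of -0.996, and 3 of 4 against 4 of 15 were lower on the centred scale. Among these 3 is the peak near the start of Gm12510, which lies in the distal cluster of Klf4. The within-library difference changed by 0.16 ± 0.118 with overlapping conditions (exact permutation test, p = 0.3, adjusted p = 0.375). With only the starts of protein-coding transcripts counted, it changed by 0.05 (exact permutation test, p = 0.6). The changes of -1.04 and -1.21 at the promoter peaks of Klf2 and Klf4 compare with a median of -0.52 over the 11906 unmarked promoter peaks, of which 0.428% were lower on the centred scale. The RefSeq promoter windows of GRCm38.p6 are each 300 bases long and span the start. In them 69.3% of bases at Klf2 and 74.3% at Klf4 were G or C, against a median of 52.7% over 32851 promoters. Neither window held any of the 5 sequences searched. Of all these promoters 17.6% hold a KLF site, and each other sequence is found in 0.423% to 1.74%. The H3K27ac peak covered 29 bases of the Klf2 window and 0 of the Klf4 window. Acetylation was thus measured on the downstream side of both starts.

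The 3 genes were set beside the other KLF and SP family genes, which share the zinc finger DNA-binding domain. Of 23 such genes, 20 had peaks within the gene body or 20 kb, 85 peaks in all, and none were found at Klf14, Klf17 and Sp9. Of these peaks 66 were lower (77.6%, limma) and 3 on the centred scale (3.53%), with a median change of -0.55, equal to 2 decimals to that of all peaks. Of the 85, 7 were OCT4-marked, as were 1218 promoter and 3444 distal peaks of the 26457 above the background limit. The largest falls over a whole window were at Klf8 (log2 change -0.84), Klf15 (-0.82) and Klf13 (-0.75), all smaller than at Klf2 and Klf4. All 3 peaks called on the centred scale were among the 7 with the OCT4 mark. Of the 6 ESC marker genes outside the family, Sox2 and Prdm14 showed falls like those at Klf2 and Klf4, with log2 changes of -1.14 and -1.12. The other ESC marker genes changed less, by -0.95 at Zfp42, -0.95 at Tfcp2l1, -0.72 at Esrrb and -0.63 at Nanog. Within the family, the smallest changes were at Klf11 (-0.22, with overlapping libraries), Klf1 (-0.43) and Klf7 (-0.44).

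**Figure D4:**
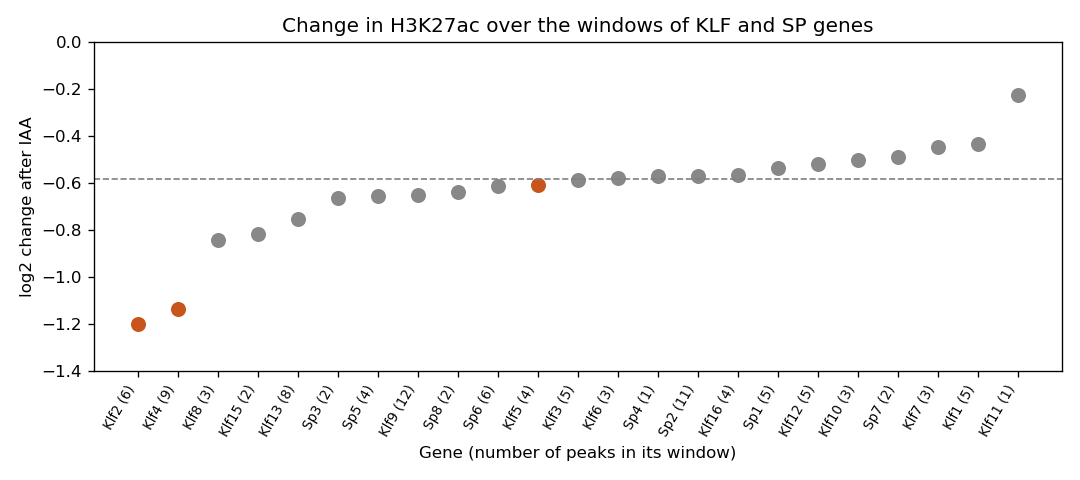
Log2 change after IAA of the length-weighted mean H3K27ac over the peaks of each KLF and SP gene (vertical axis), ordered by size, with the number of peaks in parentheses, and the change of the median peak as a dashed line at -0.58. Klf2 and Klf4 (orange) are the lowest points, whereas Klf5 (orange) lies among the other family genes (grey).

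The genes whose H3K27ac, relative to the median peak, correlated best with each member over the 6 libraries were identified among 14217 coding genes. Pearson's r was used as a description over libraries that share depth and condition, and it does not depend on the size of a change. For Klf2 they were Arntl, a component of the circadian clock (r = 0.999), AC124108.1 (0.995) and the kinase gene Sgk1 (0.995), and for Klf4 they were Gm28051 (0.999), the chromatin remodeller gene Chd9 (0.999) and Loxl1, a lysyl oxidase relative (0.998). Relative to the median peak, Klf2 changed by -0.62, Arntl by -0.48, AC124108.1 by -0.33 and Sgk1 by -0.27. Klf4 changed by -0.56, Gm28051 by -0.26, Chd9 by -0.27 and Loxl1 by -0.59. An r above 0.9 was found for 430 genes with Klf2 and 488 with Klf4, so these names are the top of long lists. For Klf5, which changed little on this scale, 27 genes exceeded 0.9. Ndufaf7 and Prkd3, which share 1 peak (0.970), and Eif2s3y, also with 1 peak (0.966), came first.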

How the data were processed

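H3K27ac ChIP-seq libraries of O4AID ESCs, 3 uninduced and 3 given IAA, were grouped by their labels. Per the methods and processing notes, the authors aligned reads to GRCm38 with Bowtie2 2.3.4.3, called peaks with MACS2 on a pool of the uninduced IPs, and used DiffBind for the RPKM that they deposited (versions of the last 2 not given in the sources used here), so a region acetylated only after IAA has no peak. The deposited pooled RPKM columns equal the mean of the 3 libraries and were used for the limit of 0.5 RPKM, the study's own background limit. No input library was used. Of per-sample columns 0 were left unused.

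Peaks were tested on log2(RPKM + 0.1), which understates changes of low peaks, with limma 3.58.1 in R 4.3.3 (trend and robust, two-sided, Benjamini-Hochberg over 26457 peaks, threshold 0.05). The fit was tested on simulated data. Read numbers were recovered as whole multiples of 1 read (within 0.01 read) with length taken as end minus start, for depth only. Peak coordinates are printed as deposited, with starts that count from 0, whereas sequence and motif positions count from 1. Locus values were compared by exact two-sided permutation tests over 20 labellings. Sequences were read from GRCm38.p6 and promoters from RefSeq, which matched Klf2 and Klf4. Likeness was computed for coding genes sharing no peak with the member, and all member peaks, the nearest peak outside each window, and the 3 largest and 3 smallest changes of the other family genes are named. The members, gene lists and sequences searched were chosen with earlier results of these data known.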

Additional observations from a re-analysis of the deposited data

How the results depend on the processing

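The Klf2 and Klf4 loci were lower after IAA under every alternative run, and Klf5 under all but centring on the median peak and quantile normalization (exact permutation test, p = 0.7 and p = 1). Leaving out 1 library gave log2 changes of -1.33 to -1.04 at Klf2, -1.19 to -1.04 at Klf4 and -0.71 to -0.54 at Klf5. Centring on the median peak above the limit and quantile normalization moved all 3 loci most. With libraries centred on the median peak the changes were -0.62, -0.56 and -0.0273, and after quantile normalization -0.61, -0.55 and -0.0183. Either scaling left 3 of 6 peaks lower at Klf2, 4 of 9 at Klf4 and 0 of 4 at Klf5. Centring together with a replicate block, added after seeing the data, left 2, 3 and 0. The window turned 1 result. Flanks of 10 kb, a setting that also drops the extension of the Klf4 window, held fewer peaks. Lower were 3 of 3 at Klf2 and 1 of 1 at Klf4. Klf4 minus Klf2 was then -0.21, Klf5 minus Klf2 was 0.42 and the OCT4-marked minus unmarked change turned to 0.27. With flanks of 20 kb and no extension, 2 of 2 Klf4 peaks were lower. With flanks of 50 kb and the extension kept, Klf5 changed by -0.97 with 9 of 9 peaks lower. Klf5 minus Klf2 was then 0.23 and Klf4 minus Klf5 was -0.17. Klf5 with only the peaks 20 to 50 kb outside, added after seeing the data, changed by -1.16. At an adjusted p under 0.01, 1 of 4 Klf5 peaks was lower. Without 1 library, 2 to 4 Klf5 peaks were called, the fewest without uninduced replicate 3, and 16 to 19 of all members. Over all peaks 18048 were lower with all 6 libraries, 10378 when uninduced replicate 1 was left out and 19611 when IAA replicate 1 was. Same-numbered libraries did not deviate together (correlations of -0.01, -0.09 and -0.06), so numbers were not taken as pairs. With the replicate block all 6, 9 and 4 peaks remained lower, as did 18898 of 26457 peaks in all. In the smallest members, at 14 or 15 reads, depth limits each value.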
